A study of Homo sapiens with 6 samples.

Results

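Galectins are small proteins that bind β-galactoside sugars, and galectin-3 binding protein is a secreted glycoprotein that some of them bind. The 7 members described here are LGALS1, LGALS2, LGALS3, LGALS4, LGALS8, LGALS9 and LGALS3BP, out of 23180 gene symbols in the table. They were chosen by their gene family with their measured differences between siKMT9α#1 and siControl already known, so those differences are given as a description and not as a test. For a gene with several RefSeq transcripts, only the one with the highest total count is used.

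RNA-Seq was performed on A549 cells, an established human lung adenocarcinoma line. The 6 samples were all labelled WT and passage 11. Of these, 3 received siControl, labelled siRNA_Control, and 3 received a single siRNA against KMT9α, labelled siRNA_KMT9a. KMT9α, encoded by N6AMT1, is the catalytic subunit of the histone methyltransferase KMT9, and RNA was isolated 3 days after transfection. The samples of a group are labelled biological replicates. The siRNA is siKMT9α#1 in the study's methods, and the labels do not number it, so what follows describes 1 siRNA in 1 cell line.

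Galectins are made without a signal peptide, so they act in the cytosol and nucleus and also leave the cell by an unconventional route. Outside the cell they bind N-acetyllactosamine on glycoproteins and, because they carry or assemble several sugar-binding sites, cross-link them into a lattice. Inside the cell they gather on damaged endosomes and lysosomes whose sugars have become exposed. Galectin-1 (LGALS1) and galectin-2 (LGALS2) have 1 carbohydrate-recognition domain and pair up. Galectin-3 (LGALS3) joins 1 such domain to a flexible tail through which it forms oligomers. Galectin-4 (LGALS4), galectin-8 (LGALS8) and galectin-9 (LGALS9) hold 2 domains on 1 chain. LGALS3BP is no lectin. It is a heavily glycosylated, interferon-inducible protein with a scavenger-receptor domain, and it is a ligand of galectin-3.

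The galectins share a run of 5 codons in the sugar-binding pocket, for histidine, any residue, asparagine, proline and arginine. The run is a mark of the family by which the members were chosen. Its presence in them is therefore a description and not a separate result. In GENCODE v44 on GRCh37, the build that the files call hg19, this run was present in the coding sequence of 38 of 19420 coding genes, which is 0.196%, and 11 of the 38 carry a galectin-family symbol. It occurred in 1 copy in LGALS1, LGALS2 and LGALS3, in 2 copies in LGALS4, LGALS8 and LGALS9, and in 0 copies in LGALS3BP. The copies in the 3 galectins with readily detected RNA are printed below 5′ to 3′ on the gene's own strand, with the 5 codons in capitals and 3 codons on each side in lower case. They lie in coding exon sequence on the plus strand: for LGALS1 in exon 3 of 4 at chr22:38074524-38074556, for LGALS3 in exon 5 of 6 at chr14:55609333-55609365, and for LGALS8 in exon 4 of 10 at chr1:236702228-236702260 and in exon 9 of 10 at chr1:236708087-236708119.
LGALS1: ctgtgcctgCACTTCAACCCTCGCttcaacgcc
LGALS3: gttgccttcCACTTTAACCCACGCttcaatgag
LGALS8, first domain: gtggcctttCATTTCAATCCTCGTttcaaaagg
LGALS8, second domain: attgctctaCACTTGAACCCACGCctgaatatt

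Counted on 1 transcript per gene, the depth of a sample was between 13740097 and 19832395.5 estimated counts, and 13877 genes passed the filter on low counts. N6AMT1 stood at 10.2, 10.8 and 11.5 CPM (counts relative to library size, scaled by the trimmed mean of M values, TMM) in siControl and at 2.87, 3.22 and 3.35 in siKMT9α#1. Its log2 fold change was -1.77 (SE 0.12). Of the genes tested, 75.6% had an adjusted p under 0.05 by the quasi-likelihood test of edgeR, with p-values adjusted by the Benjamini-Hochberg method, with 37.1% higher and 38.5% lower in siKMT9α#1. The median log2 fold change of all genes was -0.01 and the median size was 0.47. Scaling by library size alone moved the median of all genes by a further -0.11 and changed the split from 5150 higher and 5342 lower to 4359 higher and 6212 lower. Of the genes tested, 39.4% were lower in siKMT9α#1 with no overlap between the groups. The self-test used counts simulated for this comparison, of which 13765 genes passed the filter. It called 182 of 197 genes changed by a log2 fold change of 1 in size. The other 13568 genes were unchanged, so it cannot check the scaling in data where 75.6% of genes were called.

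The marker genes of A549 and of epithelial cells were detected in all samples. KRT7 was at 1260 ± 64.2 CPM (SD, n = 3) in siControl and at 1269 ± 51.4 in siKMT9α#1, while EPCAM was low, at 3.86 ± 0.40 and 0.593 ± 0.146. The summed level of the 7 markers was 6105 to 6568 CPM in siControl and 3559 to 3708 in siKMT9α#1. By the edgeR test 6 of the 7 were lower, where 38.5% of all genes tested were called lower, and KRT7 was the marker not called. The 5 blood cell markers summed to at most 3.77 CPM in any sample and the 3 endothelial markers to at most 0.803, and CD3E was at 0. The 4 fibroblast markers summed to 6.51 to 8.15 CPM in siControl and 3.00 to 3.22 in siKMT9α#1, with COL1A2 at 0. Their part in the values below was not tested. In bulk RNA, fewer cells of a type and less RNA per cell cannot be told apart.

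Of the 7 members, LGALS1, LGALS3, LGALS8 and LGALS3BP were readily detected in these cells. All 4 were lower in siKMT9α#1, LGALS3 by the largest factor, and 4 of 4 had an adjusted p under 0.05 where 38.5% of all genes tested were called lower and 39.4% were lower without overlap. Nothing is read from that count, since the selection used this contrast and only 4 of the 7 members passed the filter. LGALS2, LGALS4 and LGALS9 were too low for it.

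LGALS3 encodes galectin-3, the only human galectin built from a sugar-binding domain and a proline-rich oligomerisation tail. Its transcript NM_002306 spans chr14:55595935-55612148 on the plus strand of hg19 and is 989 bases long. LGALS3 was measured at 98.9, 100.2 and 97.6 CPM in siControl and at 25.8, 25.9 and 27.2 CPM in siKMT9α#1. The 3 control samples lay far above all 3 knock-down samples, and the samples of each group were close together. The means were 98.9 ± 1.33 and 26.3 ± 0.77 CPM (SD, n = 3), the log2 fold change was -1.91 (SE 0.05), and the level in siKMT9α#1 was 26.7% of that in siControl. Among the 13877 genes tested, 353, or 2.54%, had a lower log2 fold change. Counts were also deposited for NM_001177388 and NR_003225, whose log2 fold changes were -1.93 (SE 0.06) and -1.86 (SE 0.06) when every transcript was kept. The 3 transcripts share exons and reads, so they are not separate measurements.

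LGALS1 encodes galectin-1, a homodimer that is secreted by many tumor cells and stroma and that acts on T cells and endothelium. Its transcript NM_002305 has 551 bases and spans chr22:38071613-38075809 on the plus strand of hg19. LGALS1 was measured at 313.9, 338.0 and 340.1 CPM in siControl and at 196.7, 194.9 and 163.0 CPM in siKMT9α#1. The groups did not overlap, and siKMT9α#1 replicate 3 was the lowest of its group. The means were 330.7 ± 14.6 and 184.9 ± 18.9 CPM (SD, n = 3) and the log2 fold change was -0.84 (SE 0.06), which left 55.8% of the control level. Of all genes tested, 1907 had a lower log2 fold change. Leaving out siKMT9α#1 replicate 3 gave -0.75.

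LGALS8 encodes galectin-8, whose first domain favours sialylated galactosides and which marks broken vesicles for autophagy through CALCOCO2 (NDP52). Its transcript NM_006499 has 6256 bases and spans chr1:236686739-236716279 on the plus strand of hg19. LGALS8 was measured at 158.1, 146.9 and 154.0 CPM in siControl and at 96.0, 100.1 and 104.5 CPM in siKMT9α#1. All control samples lay above all knock-down samples. The means were 153.0 ± 5.64 and 100.2 ± 4.25 CPM (SD, n = 3), and the log2 fold change was -0.61 (SE 0.05), or 65.6% of the control level. The 4 deposited transcripts share most of their sequence and gave log2 fold changes from -0.61 to -0.60. The span overlaps those of HEATR1 and the antisense RNA LGALS8-AS1, and since the strandedness of the counting is not given in the sources used here, reads of the overlapping stretches cannot be told apart. HEATR1, looked up after its values were seen, was at 206.6 ± 9.58 and 250.1 ± 6.67 CPM, with a log2 fold change of 0.28 (SE 0.05) that turned to -0.035 with offsets for transcript length.

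LGALS3BP encodes galectin-3 binding protein, the secreted ligand of galectin-3. Its transcript NM_005567 has 2249 bases and spans chr17:76967335-76976061 on the minus strand of hg19. LGALS3BP was measured at 163.7, 141.0 and 155.3 CPM in siControl and at 117.6, 111.4 and 112.3 CPM in siKMT9α#1. The groups did not overlap, but the gap between the lowest control and the highest knock-down sample was the narrowest of these 4 genes in proportion to their levels. The means were 153.3 ± 11.5 and 113.7 ± 3.34 CPM (SD, n = 3), with a log2 fold change of -0.43 (SE 0.06) and 74.1% of the control level. Of all genes tested, 27.4% had a lower log2 fold change. With offsets for transcript length alone, the log2 fold change was -0.31. With offsets for both GC content and transcript length, an alternative added after seeing the data, it was -0.25. LGALS3BP is the most GC-rich of the 7 members, at 61.2% in its transcript against a median of 49.0% over the genes tested. The part of GC content in these values was not tested.

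**Figure D1:**
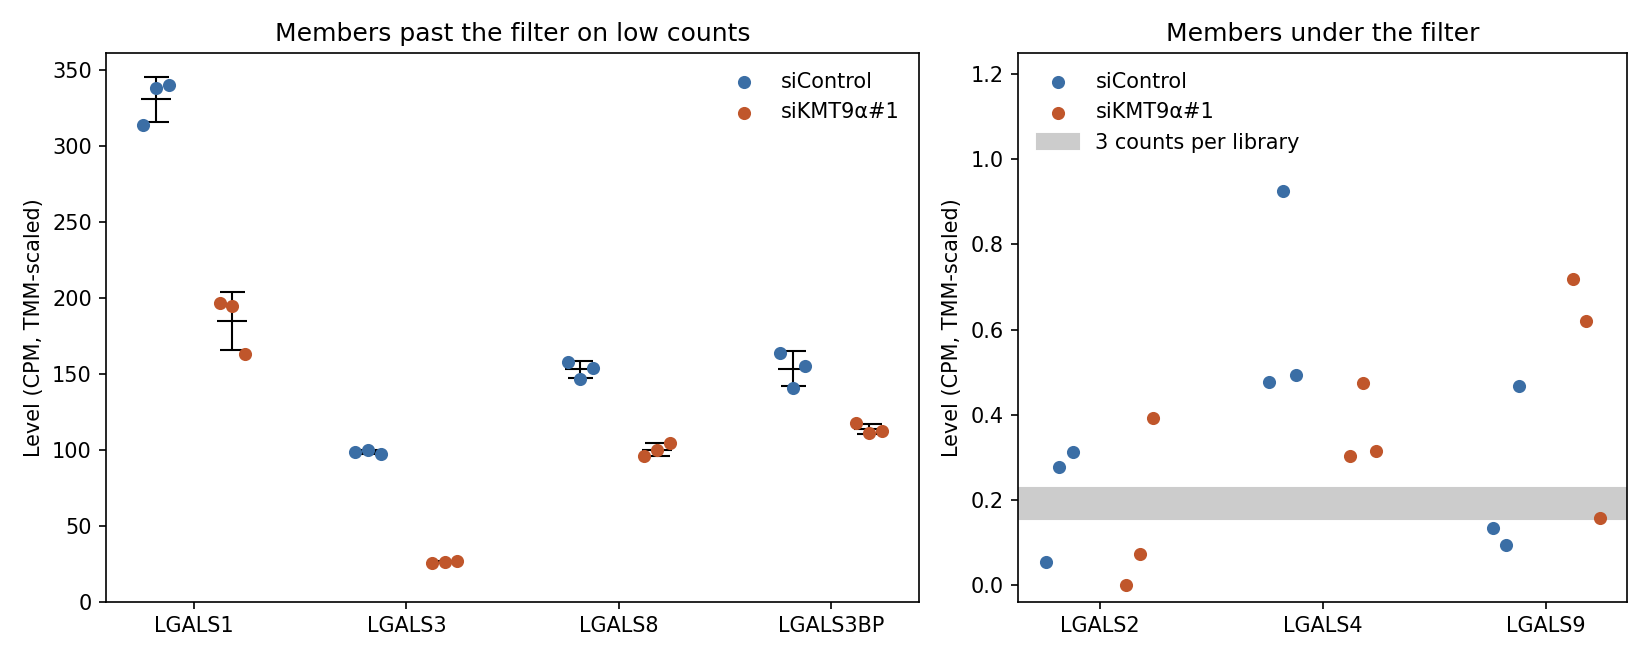
Level of each member in every sample, in TMM-scaled CPM on linear axes starting at 0 (right panel just below it), with points for the 3 siControl and the 3 siKMT9α#1 samples. In the left panel the horizontal marks and bars are mean ± SD, and LGALS3 shows the widest proportional gap, 98.9 against 26.3 CPM. In the right panel the grey band is the level of 3 counts over the libraries, 0.156 to 0.227 CPM, and the points of LGALS2 and LGALS9 of both groups intermix.

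Beside all other genes, LGALS3 lay in the outer part of the lower side of the distribution, while LGALS1, LGALS8 and LGALS3BP lay on the shoulder of it. The shares of all genes with a lower log2 fold change were 2.54% for LGALS3, 13.7% for LGALS1, 20.03% for LGALS8 and 27.4% for LGALS3BP.

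**Figure D2:**
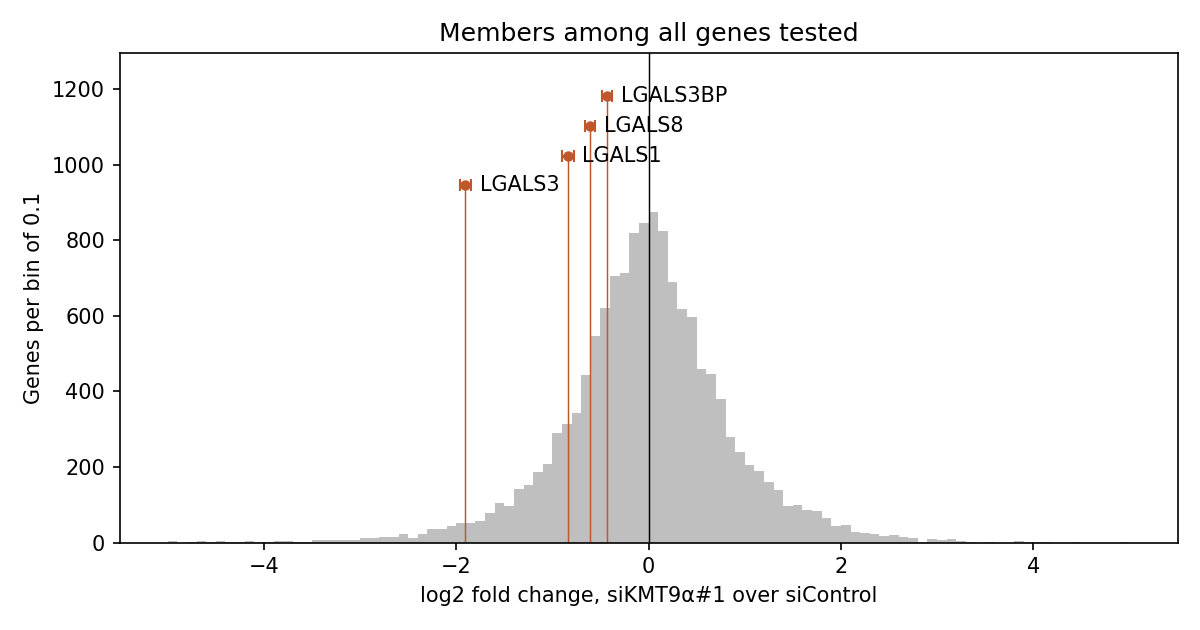
Histogram of the log2 fold change (siKMT9α#1 over siControl) of the 13877 genes tested in bins of 0.1, with the 4 tested members as points and vertical lines and the SE as horizontal bars. Values beyond 5 in size are placed in the outermost bins. LGALS3 at -1.91 lies in the lower tail, and the other 3 members lie between -0.84 and -0.43.

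The remaining 3 members were at the limit of detection. LGALS4, a galectin of the intestinal epithelium, had 9, 15 and 9.5 counts in siControl and 4, 6.5 and 6 counts in siKMT9α#1. In CPM the groups were separated only by the difference between 0.478 and 0.475. LGALS2, a galectin best known from the gastrointestinal tract, had 1, 4.5 and 6 counts in siControl and 0, 1 and 7.5 counts in siKMT9α#1, so its groups overlapped. LGALS9, an interferon-inducible galectin and a ligand of the receptor TIM-3, had 2.5, 1.5 and 9 counts in siControl and 9.5, 8.5 and 3 counts in siKMT9α#1. Its groups overlapped as well, and it was the only one of the 3 whose summed count was higher in siKMT9α#1, at 21 against 13. None of these 3 genes was tested, and their counts are too low to read a difference from. Reads from LGALS9 can also fit the near-identical copies LGALS9B and LGALS9C. LGALS9B was at 0 and LGALS9C had 3 counts in all siControl samples together and 0 in siKMT9α#1.

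Per kilobase of transcript (RPKM), which allows levels of different genes to be set side by side, LGALS1 was the most abundant member in both groups, at 600.1 ± 26.4 in siControl and 335.5 ± 34.3 in siKMT9α#1 (SD, n = 3). In siControl its level per length was above that of 99.3% of the genes tested. LGALS3 followed at 99.98 ± 1.35 RPKM, then LGALS3BP at 68.2 ± 5.10 and LGALS8 at 24.5 ± 0.90, and the ranges of these neighbours did not overlap. LGALS4, LGALS2 and LGALS9 were at mean levels of 0.502, 0.411 and 0.140 RPKM. The range of LGALS2 overlapped those of both others, while LGALS4 lay above LGALS9 in every control sample, at counts of 15 or fewer. In siKMT9α#1 LGALS3 and LGALS3BP exchanged places in this order, with LGALS3BP at 50.6 ± 1.49 RPKM and LGALS3 at 26.6 ± 0.78, followed by LGALS8 at 16.02 ± 0.68. Neighbouring ranges were again separate for these genes, while LGALS9, LGALS2 and LGALS4, at 0.302, 0.298 and 0.289 RPKM, could not be ordered. The place of LGALS3 depends on the transcript used, here NM_002306 with 989 bases. NR_003225, with 1949 bases, had 95.6 to 99.4 CPM in siControl and 25.6 to 27.8 CPM in siKMT9α#1. Per that length, LGALS3 lay below LGALS3BP in both groups and below LGALS8 in siKMT9α#1.

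Because LGALS3 was lower by a larger factor than the others, the proportions among the members differed between the groups. The ratio of LGALS1 to LGALS3 in RPKM was 5.70, 6.05 and 6.26 in siControl and 13.7, 13.5 and 10.8 in siKMT9α#1. The ratio of LGALS3BP to LGALS3 was 0.728, 0.619 and 0.700 in siControl and 2.00, 1.89 and 1.82 in siKMT9α#1. With the length of NM_002306, this placed the ligand below its lectin in all control samples and above it in all knock-down samples. With NR_003225 in its place, the ligand lay above its lectin in every sample. With the length of NM_002306, LGALS3 exceeded LGALS8 by a ratio of 3.96 to 4.31 in siControl and of 1.64 to 1.70 in siKMT9α#1. By the same length, LGALS1 made up 81.9% to 83.2% of the summed RPKM of the member galectins in siControl. In siKMT9α#1 it made up 86.7% to 89.4%. This share was not computed with NR_003225, and it leaves out galectin-family genes that are not members.

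The log2 fold change of each tested member kept its direction under every alternative processing. LGALS3 ranged from -2.01 to -1.69, LGALS1 from -0.95 to -0.67, LGALS8 from -0.84 to -0.57 and LGALS3BP from -0.54 to -0.24. Offsets for length alone, and for length with GC content, moved the long, GC-poor LGALS8 away from 0, to -0.84. Both moved the 3 shorter members towards 0.

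**Figure D3:**
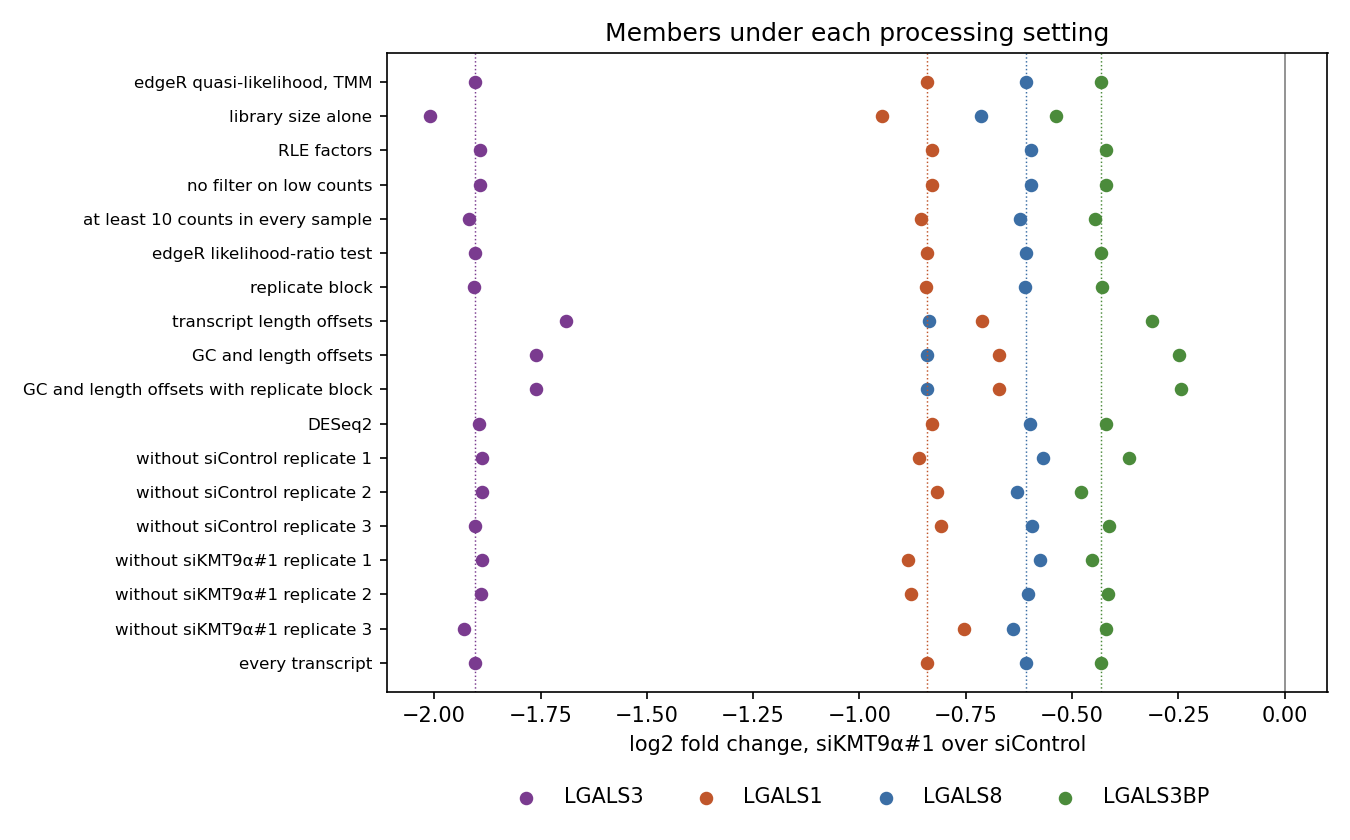
Log2 fold change (siKMT9α#1 over siControl) of the 4 tested members, 1 color each, under the chosen fit in the top line and each alternative below it, with dotted lines at the value of the chosen fit. All points lie below 0, and the points of LGALS3, from -2.01 to -1.69, stay apart from those of the other members.

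Promoter sequences from RefSeq on GRCh38.p14 were found for 6 of the 7 members. LGALS1 had no entry. Each window of 300 bases, from 250 before to 50 after the start, was searched on both strands for an interferon response element, a GC box and a TATA box. The interferon element, the core that interferon regulatory factors recognise, was spelled GAAANNGAAA. It was found in LGALS3BP and LGALS9 and in 3.57% of all 35116 promoters. The GC box, spelled GGGCGG, was found in LGALS3 with 3 copies and in 1 of the 3 LGALS8 promoters with 1 copy, against 45.0% of all promoters. Another of the LGALS8 promoters held 2 copies of the TATA box, spelled TATAAA, against 11.5% of all promoters. A match of letters is a description and not a binding site.

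The LGALS3BP promoter is shown because it carries the interferon element next to the start, 58 bases upstream on the gene's strand. It covers chr17:78979924-78980173 of GRCh38.p14 on the minus strand, written 5′ to 3′ with the element in capitals.
LGALS3BP promoter: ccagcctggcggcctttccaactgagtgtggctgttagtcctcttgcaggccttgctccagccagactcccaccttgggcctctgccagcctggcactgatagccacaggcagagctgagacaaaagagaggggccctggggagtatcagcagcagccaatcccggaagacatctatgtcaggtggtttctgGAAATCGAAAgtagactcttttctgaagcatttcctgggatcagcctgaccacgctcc

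In LGALS9 the element begins 9 bases before the start on the opposite strand, and it is shown in capitals within the surrounding bases of the gene's own strand.
LGALS9 start: gttgctttggTTTCTATTTCtttgttaagt

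The promoter of LGALS3, the member with the largest difference, is of another kind, with 78.3% G and C against a median of 58.7% over all promoters. It covers chr14:55129002-55129251 of GRCh38.p14 on the plus strand, with the 3 GC boxes of either strand in capitals.
LGALS3 promoter: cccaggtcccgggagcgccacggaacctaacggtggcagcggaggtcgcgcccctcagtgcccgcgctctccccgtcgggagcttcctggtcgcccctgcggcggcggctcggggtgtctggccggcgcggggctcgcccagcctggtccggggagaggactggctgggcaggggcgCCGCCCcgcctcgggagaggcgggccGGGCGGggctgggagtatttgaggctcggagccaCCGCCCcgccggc

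LGALS3BP and LGALS9 are known interferon targets, and other interferon-induced genes were therefore listed. Of 13 listed genes, 10 were tested, of which 7 fell and 2 rose, where 38.5% of all genes tested fell and 37.1% rose. The median log2 fold change was -0.73 beside -0.01 over all genes tested. The antiviral genes OAS1 and MX1 fell, with log2 fold changes of -2.68 (SE 0.09) and -1.81 (SE 0.24), as did the antiviral membrane protein IFITM3, with -1.58 (SE 0.19). The antigen-presentation subunit B2M and the transcription factor IRF1 rose, by log2 fold changes of 0.25 (SE 0.06) and 0.32 (SE 0.06). The summed level of the 13 genes was 686 to 736 CPM in siControl and 645 to 733 in siKMT9α#1, so the sums of the groups overlapped.

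Of the other genes of the galectin family, LGALSL, a galectin-related protein without sugar binding, was the only protein-coding gene tested. It fell from 46.7 ± 0.67 to 24.8 ± 1.95 CPM (SD, n = 3), a log2 fold change of -0.92 (SE 0.07). The antisense RNA LGALS8-AS1 fell from 2.78 ± 0.48 to 1.15 ± 0.34 CPM with a log2 fold change of -1.26 (SE 0.23) and an adjusted p of 6.74e-05 by edgeR's quasi-likelihood test. Of the 12 listed genes, 11 were in the table and 7 had no count in any sample, among them LGALS7, LGALS7B and LGALS12.

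Galectin ligands are built in the Golgi by branching, galactose-adding and capping enzymes. Of 25 listed genes of glycan synthesis, 24 were tested, of which 12 rose and 7 fell, beside 37.1% higher and 38.5% lower among all genes tested, and the median log2 fold change was 0.17. ST6GAL1, whose α2,6-sialic acid blocks binding of galectin-1 and galectin-3, rose from 5.64 ± 0.94 to 15.02 ± 0.77 CPM (SD, n = 3), a log2 fold change of 1.41 (SE 0.11). B3GNT2, which extends poly-N-acetyllactosamine chains, rose by a log2 fold change of 0.79 (SE 0.07), the galactosyltransferase B4GALT4 by 0.72 (SE 0.06) and C1GALT1, which makes the core of O-glycans, by 0.68 (SE 0.06). SLC35A2, the carrier of UDP-galactose into the Golgi, fell by 1.39 (SE 0.05) on the log2 scale, from 127.8 ± 3.21 to 48.7 ± 2.29 CPM. The branching enzymes MGAT4A and GCNT1 fell at low levels, with log2 fold changes of -0.999 (SE 0.16) and -0.94 (SE 0.17). MGAT5, which makes the N-glycan branch that galectin-3 binds best, had a log2 fold change of 0.32 (SE 0.06), but 0.020 with length offsets and -0.050 with GC and length offsets, so its direction depends on the correction.

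Galectins bind many glycoproteins of the cell surface and matrix. Of 26 such genes listed, 24 were tested, of which 17 rose and 2 fell, beside 37.1% and 38.5% of all genes tested, and the median log2 fold change was 0.62. The growth factor receptor EGFR, which the galectin-3 lattice holds at the surface, rose from 18.1 ± 0.19 to 107.2 ± 6.85 CPM (SD, n = 3), a log2 fold change of 2.57 (SE 0.06). BSG (basigin), LAMC1 (a laminin chain) and the hyaluronan receptor CD44 rose by log2 fold changes of 1.81 (SE 0.05), 1.65 (SE 0.06) and 1.22 (SE 0.06). HAVCR2, the galectin-9 receptor TIM-3, fell by 1.93 (SE 0.37) on the log2 scale from a level of only 1.18 ± 0.38 CPM. The lysosomal membrane protein LAMP2 fell by 0.21 (SE 0.06), with an adjusted p of 0.0051 by edgeR's quasi-likelihood test, a call that was lost without siControl replicate 1 (-0.12). LAMP1 and MUC1 did not pass the test, with log2 fold changes of -0.013 (SE 0.05) and 0.14 (SE 0.26).

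Galectins also have partners inside the cell, in the autophagy of damaged vesicles, in membrane repair and at RAS proteins. Of 18 such genes, all tested, 6 rose and 8 fell, with a median log2 fold change of -0.11. These counts are near the background of 37.1% higher and 38.5% lower. CALCOCO2, the autophagy receptor bound by galectin-8, fell by 0.80 (SE 0.05) on the log2 scale, and TRIM16, which galectin-3 recruits to damaged lysosomes, fell by 0.67 (SE 0.05). The ESCRT protein TSG101 and FBXO2, a ubiquitin ligase subunit for glycoproteins, fell with log2 fold changes of -1.11 (SE 0.05) and -1.38 (SE 0.20). PDCD6IP (ALIX), which galectin-3 brings to ruptured membranes, did not pass the test, at -0.07 (SE 0.05), but did with library size alone (-0.18) and with length offsets (-0.28). BCL2, the survival protein, and SUFU, a regulator of hedgehog signalling, rose by log2 fold changes of 1.02 (SE 0.20) and 0.61 (SE 0.12). HRAS, a partner of galectin-1, had a log2 fold change of 0.17 (SE 0.07) and an adjusted p of 0.0443 by edgeR's quasi-likelihood test, a call that was lost under 7 alternatives, among them DESeq2 (0.18), library size alone (0.06), the replicate block (0.17) and fits without siControl replicate 1 (0.13) or siKMT9α#1 replicate 1 (0.11) or 2 (0.15).

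**Figure D4:**
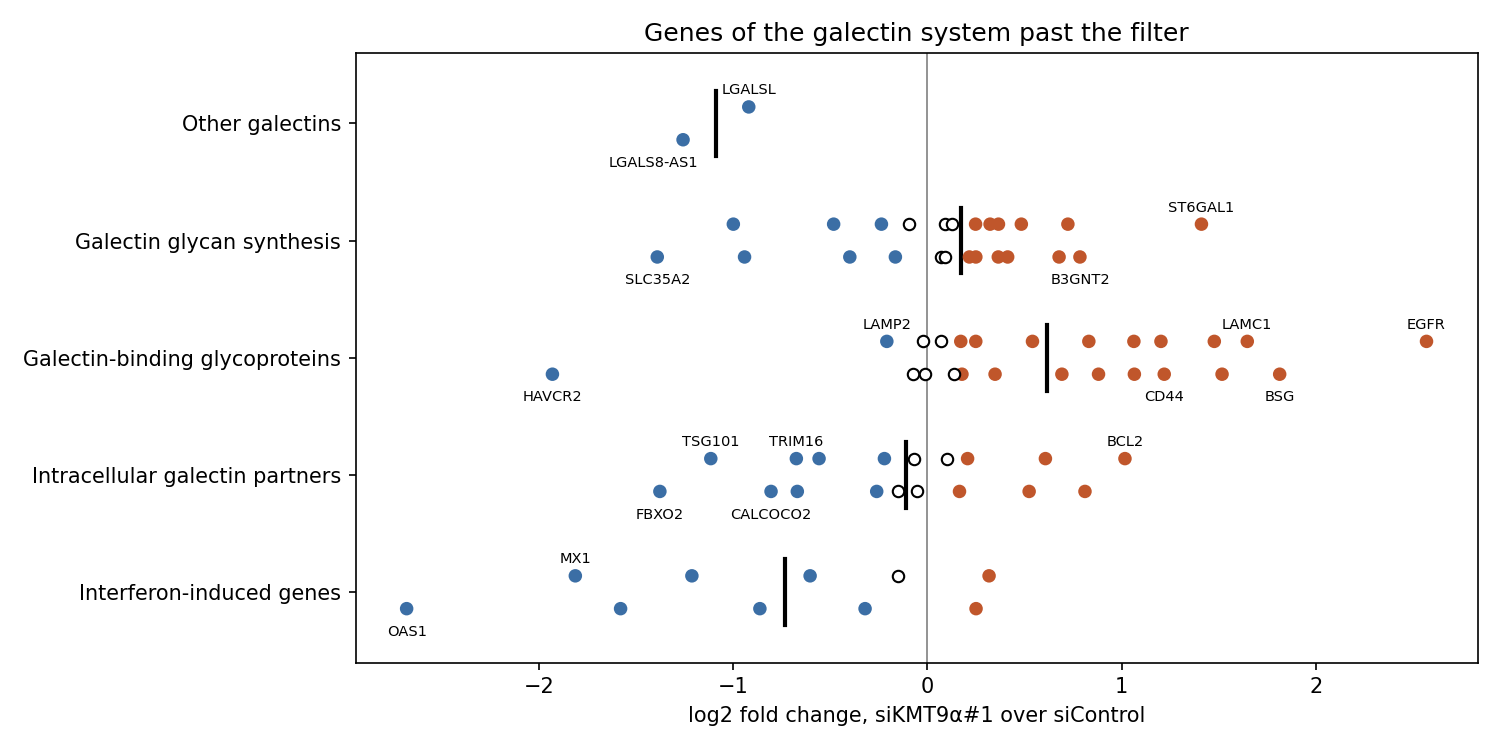
Log2 fold change (siKMT9α#1 over siControl) of each tested gene of the 5 lists, with 1 point per gene. Points are orange where a gene was higher and blue where it was lower with an adjusted p under 0.05, and open where it did not pass, black bars are list medians, and the vertical offset of points only keeps them apart. The galectin-binding glycoproteins lie mostly above 0 with a median of 0.62, while the interferon-induced genes lie mostly below 0 with a median of -0.73.

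The genes whose pattern over the 6 samples was most like that of a member were ranked by the root mean square difference of their mean-centred log2 CPM. For LGALS3 these were MORF4L2 (0.024), RAB18 (0.033) and EXTL3 (0.034), with log2 fold changes of -1.90, -1.97 and -1.92. For LGALS1 they were DHRS2 (0.029), UBE2L6 (0.030) and PRDX5 (0.031), all with the lowest value in siKMT9α#1 replicate 3 as in LGALS1. For LGALS3BP they were EXOC2 (0.021), B3GNT9 (0.022) and CHST3 (0.036), all with the lowest control value in siControl replicate 2. The likeness rests on 6 samples that share their libraries and depth. The ranking used these same samples, so the shared lowest replicates are no separate result.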

How the data were processed

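RNA-Seq of A549 cells, 3 siControl and 3 siKMT9α#1 samples, was analysed. The authors aligned reads to hg19 with STAR, counted them per RefSeq transcript with HOMER analyzeRepeats and deposited estimated counts that are not normalized. All of these were multiples of 0.5, and the library type, counting options and edgeR settings are not given in the sources used here. The authors also deposited a fold change (ratio) and raw and adjusted p-values per transcript, which were not used.

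Of 38767 rows, 1182 without symbol and counts were left out, and each of the 23180 symbols kept its transcript with the largest summed count. Totals per sample were 13740097 to 19832395.5, and the number of per-sample columns without a sample was 0. Counts were rounded and fitted with edgeR 4.0.16 in R 4.3.3 (TMM, filterByExpr with a minimum count of 10, two-sided quasi-likelihood test, Benjamini-Hochberg adjustment over 13877 genes). The SE is the size of the log2 fold change over the square root of F. The biological coefficient of variation was 4.47%. CPM used TMM-scaled libraries, and RPKM divided CPM by the deposited length in kilobases. Tested on simulated data with 13765 genes past the filter, 8 of 13568 unchanged genes were called. Since few genes were changed there, this does not check error control where most genes are called. P-values weigh the group difference against the spread between replicates, which edgeR moderates across genes. They do not cover other siRNAs or cell lines. A floor of 3 counts covers counting error only. Chi-square per gene was 1.34 to 5.00 within groups and 100.1 to 132.6 between them. The lowest value, 1.34, was that of siKMT9α#1 replicates 1 and 2. No sample was treated as a duplicate, and these values cannot show how independent the replicates of a group are.

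Members and gene lists were chosen with earlier results of these data known. The genes named are every member, the 3 highest and 3 lowest called genes of each list, genes tied by name to a member, N6AMT1, and for LGALS3, LGALS1 and LGALS3BP the 3 genes of most similar pattern. HEATR1 was named outside this rule, and a gene that falls under it is not reported here. Alternatives were DESeq2 1.42.0, a likelihood-ratio test, scaling by library size alone or by RLE, filters (none, or 10 counts in every sample), every transcript, a replicate block, length offsets, each sample left out and, added after seeing the data, GC and length offsets. GC content was known for 98.8% of genes tested. Coding sequences came from GENCODE v44 on GRCh37 and promoters from RefSeq on GRCh38.p14, and coordinates were not converted between builds. Deposited starts were read as 1-based.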

Additional observations from a re-analysis of the deposited data

How the results depend on the processing

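The members' direction held under every alternative run. When each transcript was kept, 18897 transcripts were called, 9288 higher and 9609 lower, since more features were tested. Galectin-binding glycoproteins called lower numbered 4 in place of 2 with library size alone and with length offsets. They also numbered 4 with GC and length offsets, with and without the replicate block. The cause of these rises was not tested. The number was 1 with at least 10 counts in every sample, a filter that HAVCR2 missed with 3, 4 and 7 counts in siKMT9α#1. It was also 1 without siControl replicate 1, where LAMP2 lost its call (1 to 2 over the samples left out). Genes called were 10004 to 10313 over the samples left out and 9632 with DESeq2.

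HEATR1 turned to -0.035 with length offsets, -0.039 with GC and length offsets and -0.038 with these and the block. MGAT5 turned to -0.050 with GC and length offsets and -0.048 with the block added. LAMP1, which was not called, gave 0.073, 0.068 and 0.066 under these 3 kinds of offsets and -0.052 to 0.019 over the samples left out. MUC1, also not called, gave -0.038 (without siKMT9α#1 replicate 1) to 0.32 over the samples left out. The cause was not tested.

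Labels do not say that equal replicate numbers mark pairs. The correlations of deviations of same-numbered samples were -0.08, 0.02 and -0.08, and no sample correlated best with its own number. With the replicate block 10229 genes were called, 5017 higher and 5212 lower, the members gave -1.91 (LGALS3), -0.84 (LGALS1), -0.61 (LGALS8) and -0.43 (LGALS3BP), and 5 in place of 6 intracellular partners rose. LGALS9 passed the filter only without siControl replicate 2. Depth limits LGALS2, LGALS4 and LGALS9, whose counts were 15 or fewer in every sample.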
